A study of Mus musculus with 12 samples.

Results

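The genes described are the IGF (insulin-like growth factor) axis of the mouse mammary gland, namely the ligands Igf1 and Igf2, the receptors Igf1r and Igf2r, and the binding proteins Igfbp2, Igfbp3, Igfbp4, Igfbp5, Igfbp6 and Igfbp7. They were chosen by name, and all 10 were found among the 16411 genes of the count table and among the 13191 genes that passed the filter on low counts. RNA sequencing was done on mammary gland of the MMTV/neu ndl-YD5 strain, from females of FVB background, with 6 tumors and 6 pieces of benign tissue. All mice of both groups were heterozygous for the transgene, in which the MMTV promoter drives an activated HER2/neu receptor in mammary epithelium, and none was treated. Benign tissue was taken, by the study's methods, from glands without a visible tumor that lay far from the tumor site in tumor-bearing mice, so its body region could differ between samples. The sequenced benign samples and tumors came from different mice. The ages of the single mice are not given in the labels. Both groups were bulk tissue, so fewer cells of a type and less RNA per cell cannot be told apart in any value below.

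IGF1 and IGF2 are secreted growth factors that activate the IGF1 receptor, a tyrosine kinase upstream of the PI3K/AKT and RAS/MAPK pathways. IGF2R binds IGF2 without such signaling and carries it, like mannose 6-phosphate tagged enzymes, to lysosomes. The binding proteins hold most IGF outside cells and either restrain or prolong its action, and in the mammary gland IGF signaling takes part in duct growth while IGFBP5 is known for its rise during involution after lactation.

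Of the 10 members, 3 were higher and 5 lower in tumors than in benign tissue, and Igf1r and Igfbp2 passed the test in neither direction (edgeR's quasi-likelihood test, two-sided, Benjamini-Hochberg adjusted p under 0.1). The members that rose were Igf2r, Igfbp3 and Igfbp5, and those that fell were Igf1, Igf2, Igfbp4, Igfbp6 and Igfbp7. Over all genes tested, 28.2% were called higher and 34.8% lower. The groups did not overlap for 2 members that rose and 5 that fell, against 14.7% and 21.2% of all genes. The median log2 fold change of the members was -1.40, beside -0.062 over all genes tested.

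The labels were checked with Erbb2, the gene of the receptor that the transgene encodes, which lay between 44.8 and 73.7 CPM (counts scaled to a common library size) in benign samples and between 1989 and 16634 CPM in tumors. Total counts per sample ranged from 5240853 to 8170687 in benign tissue and from 6111393 to 8588567 in tumors. Some benign libraries stood apart in their cell type markers. The 9 skeletal muscle markers summed to 51637, 34085 and 87743 CPM in benign samples 3, 4 and 6, and to between 32.1 and 376 CPM in the other benign samples. The 7 lymphocyte markers summed to 734 CPM in benign sample 1 and to between 3.73 and 9.12 CPM in the other 5. Among the tumors, sample 5 stood apart in its Igfbp4 and Igfbp5 levels. Values without these libraries are given below where a call is lost, a value moves by more than 1.5 times, or a single library stands out.

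Markers of the epithelium and of the cells around it moved with the groups. All 8 adipocyte markers were lower in tumors, with sums of 9042 to 21099 CPM in benign tissue and 14.6 to 128 CPM in tumors, and all 9 fibroblast markers fell from 5211 to 13219 CPM to between 537 and 1251 CPM. All 8 endothelial markers were lower as well (611 to 1183 CPM against 84.9 to 102 CPM), as were all 7 myoepithelial markers (699.9 to 1556 CPM against 31.9 to 111 CPM). Of 6 mural cell markers 5 were lower and 1 was higher (516 to 3174 CPM against 284 to 463 CPM), and of 6 macrophage markers 5 were lower (370.2 to 945 CPM against 209 to 337 CPM). Of 8 luminal epithelial markers 6 were higher and 1, Krt19, was lower, with sums of 939 to 2649 CPM in benign tissue and 3016 to 4496 CPM in tumors. No marker of these lists was at 0 in every sample of a group. The part of these shifts in the results for the IGF genes was not tested.

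Both ligands were lower in every tumor than in any benign sample. Igf1 (chr10:87858265-87937042, plus strand, GRCm38), the ligand that growth hormone induces in many tissues, ranged from 144 to 189 CPM in benign tissue with a median of 176, and from 6.21 to 13.4 CPM in tumors with a median of 9.49. The lowest benign sample was sample 3, and the groups did not overlap. The mean went from 169.7 ± 18.1 to 9.3 ± 2.59 CPM (SD, n = 6 each), 18.2-fold lower in tumors, and the log2 fold change was -4.19 (SE 0.18; edgeR's quasi-likelihood test, Benjamini-Hochberg adjusted p = 3.8e-09).

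Igf2 (chr7:142650766-142666816, minus strand), the imprinted fetal growth factor, ranged from 9.26 to 19.7 CPM in benign tissue with a median of 12.3, and from 0.12 to 0.405 CPM in tumors with a median of 0.147. No tumor held more than 3 Igf2 counts, and benign samples held 50 to 111. Over each group there were 533 counts in benign tissue and 9 in tumors, a ratio of 67.6 after scaling, with an exact 95% interval of 35.3 to 149 that covers counting error only. The log2 fold change was -5.99 (SE 0.34; edgeR's quasi-likelihood test, Benjamini-Hochberg adjusted p = 1.9e-08). The gene overlaps a readthrough gene model, Gm49394, that is not in the table analysed here, so the share of its reads assigned to each is uncertain. Per transcript length, Igf1 outnumbered Igf2 in benign tissue by a ratio of 8.97 ± 2.29 (SD, n = 6), with a range of 5.86 to 11.2.

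**Figure D1:**
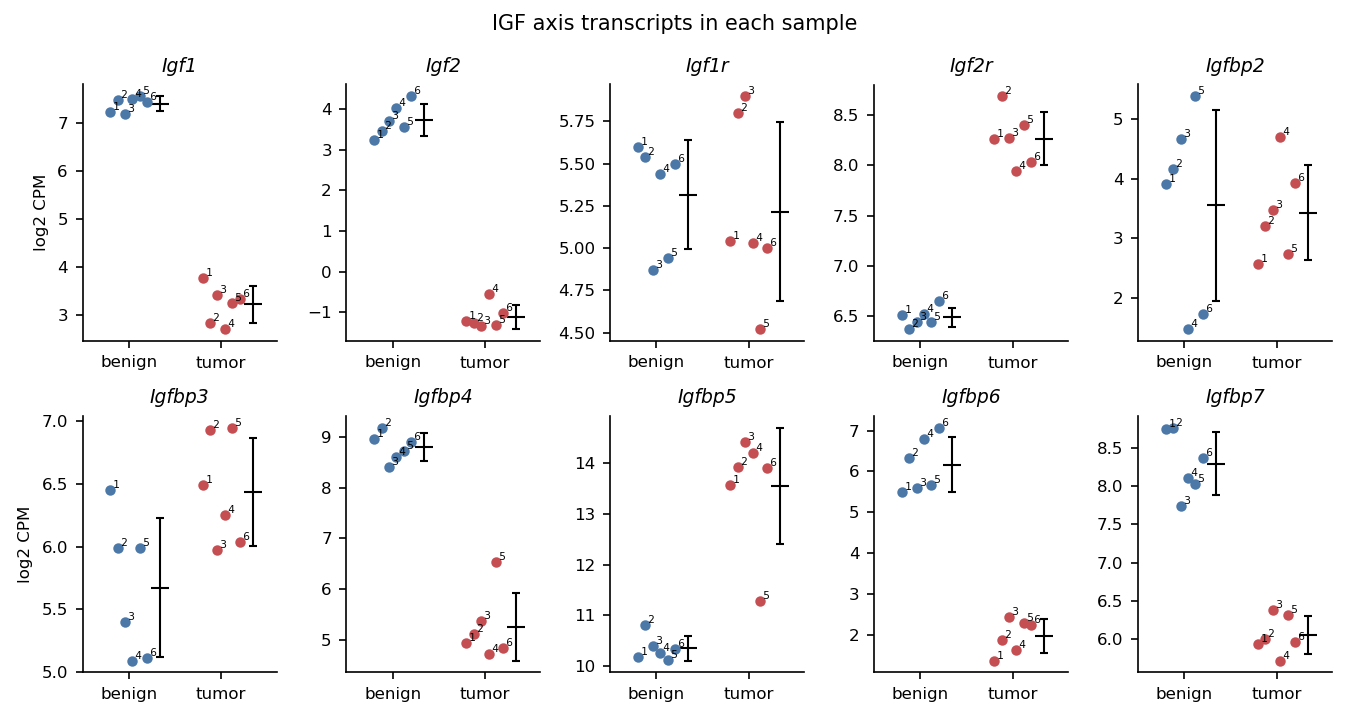
Level of each IGF gene in each sample, as log2 CPM with 2 added counts, for 6 benign samples (blue) and 6 tumors (red), with the sample number beside each point and the mean ± SD as black bars. The vertical axes differ between panels and do not start at 0. The groups are apart for Igf1, Igf2, Igf2r, Igfbp4, Igfbp5, Igfbp6 and Igfbp7 and overlap for Igf1r, Igfbp2 and Igfbp3.

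Of the receptors, Igf2r rose and Igf1r did not pass the test. Igf1r (chr7:67952827-68233668, plus strand), which encodes the signaling receptor, ranged from 28.9 to 48.4 CPM in benign tissue (median 44.0) and from 22.6 to 59.3 CPM in tumors (median 32.5). Tumors 2 and 3, at 55.6 and 59.3 CPM, lay above all benign samples, tumor 5 lay below them, and the other 3 tumors were within the benign range. The log2 fold change was -0.046 with a 95% interval of -0.56 to 0.47 (edgeR's quasi-likelihood test, Benjamini-Hochberg adjusted p = 0.88), and its sign turned with the scaling, the filter and the samples used.

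Igf2r (chr17:12682406-12769664, minus strand), which encodes the scavenger receptor for IGF2 and is itself imprinted in the mouse, ranged from 82.3 to 100.5 CPM in benign tissue (median 89.0) and from 247 to 412 CPM in tumors (median 307). Benign samples lay close together, with a coefficient of variation of 6.96%, and every tumor exceeded them. The mean rose 3.48-fold, from 89.8 ± 6.25 to 312 ± 59.0 CPM (SD, n = 6 each), with a log2 fold change of 1.80 (SE 0.13; edgeR's quasi-likelihood test, Benjamini-Hochberg adjusted p = 1.6e-07). The antisense RNA Airn overlaps 28354 bases of the gene and is not in the table analysed here. The library kit was strand-directional, but the strand setting of the quantification is not given in the sources used here. Per transcript length, there were 2.97 ± 0.645 Igf2r transcripts for each Igf1r transcript in benign tissue (SD, n = 6, range 2.29 to 3.85) and 11.3 ± 4.23 in tumors (SD, n = 6, range 6.67 to 19.2), and these ranges did not overlap.

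Igfbp5 had the largest rise of the binding proteins and, per transcript length, their highest level in tumors, whereas Igfbp7 had the highest mean in benign tissue. Igfbp5 (chr1:72857932-72874884, minus strand) stood at 1163, 1783, 1351, 1226, 1103 and 1297 CPM in benign samples 1 to 6 and at 12286, 15703, 21874, 18794, 2493 and 15489 CPM in tumors 1 to 6. All tumors exceeded all benign samples, and tumor 5 was far below the other 5 tumors. The mean rose 10.9-fold, from 1320.4 ± 243 to 14439.8 ± 6697 CPM (SD, n = 6 each), with a log2 fold change of 3.45 (SE 0.42, 95% interval 2.55 to 4.35; edgeR's quasi-likelihood test, Benjamini-Hochberg adjusted p = 1.4e-05). Without tumor 5 it was 3.73. Igfbp5 took 1.29% to 2.15% of all counts in 5 tumors and 0.263% in tumor 5, against 0.103% to 0.188% in benign tissue. Ranked by length-scaled level, it was the fifth or sixth most abundant of all genes with a length in 5 tumors and place 84 in tumor 5, and it held places 135 to 351 in benign samples.

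The promoters of 4 members are shown because they are the 2 whose rise left no overlap between the groups (Igfbp5 and Igf2r) and the 2 binding proteins with the largest falls (Igfbp6 and Igfbp4). Each is the 250 bases before a RefSeq transcription start in GRCm38.p6, written 5′ to 3′ on the gene's strand. Capitals mark matches, on either strand, to the TATA box TATAAA, a longer TATA-like run TATTTAA, the CCAAT box, the GC box GGGCGG, the E-box CACGTG or the AP-1 motif TGANTCA. None of these overlaps another in the windows shown. A match is a description of the letters and not a shown binding site.
Igfbp5, chr1:72874866-72875115, minus strand: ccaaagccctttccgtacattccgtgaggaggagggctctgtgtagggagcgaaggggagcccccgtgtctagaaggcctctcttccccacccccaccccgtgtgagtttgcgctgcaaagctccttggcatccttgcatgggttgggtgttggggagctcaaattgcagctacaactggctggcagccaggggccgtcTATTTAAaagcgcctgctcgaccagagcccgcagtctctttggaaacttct
Igf2r, chr17:12769707-12769956, minus strand: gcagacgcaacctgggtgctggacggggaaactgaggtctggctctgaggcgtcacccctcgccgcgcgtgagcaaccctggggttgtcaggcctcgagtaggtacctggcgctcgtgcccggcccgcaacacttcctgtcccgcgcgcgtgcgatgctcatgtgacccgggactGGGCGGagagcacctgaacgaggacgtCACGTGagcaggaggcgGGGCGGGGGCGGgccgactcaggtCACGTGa
Igfbp6, chr15:102143936-102144185, plus strand: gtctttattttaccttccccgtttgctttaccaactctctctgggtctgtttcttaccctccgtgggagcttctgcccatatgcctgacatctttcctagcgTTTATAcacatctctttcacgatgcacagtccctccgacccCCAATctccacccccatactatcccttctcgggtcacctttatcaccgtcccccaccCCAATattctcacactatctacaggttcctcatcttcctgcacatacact
Igfbp4, chr11:99040994-99041243, plus strand: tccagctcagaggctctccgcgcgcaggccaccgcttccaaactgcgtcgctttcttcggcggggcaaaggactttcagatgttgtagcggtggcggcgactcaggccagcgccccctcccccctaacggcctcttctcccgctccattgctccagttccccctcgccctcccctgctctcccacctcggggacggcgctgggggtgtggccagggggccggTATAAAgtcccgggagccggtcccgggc

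The Igfbp5 window held TATTTAA, which 4.18% of all 32851 promoter windows hold, and no other searched motif, and its last 19 bases lie in an exon of the GENCODE gene model. The Igf2r window held 3 GC boxes, of which the last pair lie side by side, and 2 E-boxes, and a G or C at 69.2% of its bases, against a median of 52.4% over all windows. A GC box was found in 32.7% of all windows and the E-box in 6.02%. TATAAA, present in 12.4% of all windows, was found for Igfbp4 and, on the opposite strand, for Igfbp6, whose window also held 2 CCAAT boxes (33.8% of all windows). Over the 14 starts of the 10 members, the STAT motif TTCNNNGAA and the ETS motif CCGGAAG were found at 0 starts, with 7.02% and 6.91% of all windows holding them. With shares this low, 14 windows are too few to show a lack of either motif. The Igf1 window and an Igf2 window also lie with all 250 bases in exons of their own gene.

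Igfbp3 (chr11:7206086-7213923, minus strand), the main carrier of IGFs in serum, ranged from 33.8 to 87.4 CPM in benign tissue (median 52.5) and from 62.5 to 123 CPM in tumors (median 82.7). Benign samples 1, 2 and 5 reached into the range of the tumors, and benign samples 3, 4 and 6, the ones with skeletal muscle markers, were the 3 lowest. The mean was 1.66-fold higher in tumors (54.0 ± 21.2 and 89.7 ± 27.1 CPM, SD, n = 6 each), with a log2 fold change of 0.73 (SE 0.26; edgeR's quasi-likelihood test, Benjamini-Hochberg adjusted p = 0.03). Without those 3 benign samples the log2 fold change was 0.38 and did not pass the threshold (edgeR, adjusted p = 0.23). Leaving out the lowest benign values lowers the fold change by itself, and with fewer benign samples the test has less power. The call held without any 1 of samples 3, 4 and 6 (edgeR, adjusted p = 0.064, 0.063 and 0.062). Without benign sample 1, the highest of its group, the log2 fold change was 0.97 (edgeR, adjusted p = 0.0057).

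Igfbp4 (chr11:99041244-99054392, plus strand), a binding protein that restrains IGF action until the protease PAPP-A cleaves it, ranged from 337 to 579 CPM in benign tissue (median 447) and from 26.3 to 92.3 CPM in tumors (median 32.3). The groups did not overlap, and tumor 5, the tumor with the least Igfbp5, held the most Igfbp4. The mean fell from 449 ± 86.0 to 42.2 ± 25.2 CPM (SD, n = 6 each), 10.7-fold lower, with a log2 fold change of -3.41 (SE 0.32; edgeR's quasi-likelihood test, Benjamini-Hochberg adjusted p = 1.4e-06), and of -3.74 without tumor 5.

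Igfbp6 (chr15:102144362-102149511, plus strand), the binding protein with a preference for IGF2, ranged from 45.2 to 134 CPM in benign tissue (median 65.8) and from 2.33 to 5.18 CPM in tumors (median 3.97). Within benign tissue it was highest in samples 6 and 4, at 134 and 111 CPM. Those samples also held the most adipocyte marker RNA (18139.5 and 21099 CPM, against 9042 to 12946 CPM in the other 4) and the most brown adipocyte marker RNA (813 and 2967 CPM, against 32.8 to 179.8 CPM). Skeletal muscle marker RNA was at 87743 and 34085 CPM in samples 6 and 4. In sample 3 it was at 51637 CPM and Igfbp6 at 47.9 CPM. The part of these cell types in the Igfbp6 level was not tested. The mean was 20.5-fold lower in tumors (78.2 ± 37.1 and 3.81 ± 1.12 CPM, SD, n = 6 each), the largest fold decrease among the binding proteins, with a log2 fold change of -4.34 (SE 0.34; edgeR's quasi-likelihood test, Benjamini-Hochberg adjusted p = 3e-07).

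Igfbp7 (chr5:77349240-77408041, minus strand), a secreted protein with weak affinity for IGFs that is abundant in vessels, ranged from 213 to 432 CPM in benign tissue (median 302) and from 52.5 to 83.2 CPM in tumors (median 62.9). Benign samples 1 and 2 were the highest, at 426 and 432 CPM, and no tumor reached the lowest benign sample. The mean was 4.81-fold lower in tumors (323 ± 90.7 and 67.0 ± 11.8 CPM, SD, n = 6 each), with a log2 fold change of -2.27 (SE 0.20; edgeR's quasi-likelihood test, Benjamini-Hochberg adjusted p = 7.4e-07). The log2 fold changes of the 8 endothelial markers ran from -2.27 (Kdr) to -4.71 (Cldn5) in the same samples, with Pecam1 at -3.32.

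Igfbp2 (chr1:72824503-72852474, plus strand), a binding protein of fetal and epithelial tissues, was the most variable member in both groups. It stood at 14.8, 17.6, 25.2, 2.49, 41.7 and 3.02 CPM in benign samples 1 to 6 and at 5.6, 8.94, 10.8, 25.8, 6.39 and 14.9 CPM in tumors 1 to 6. The range of the tumors lay inside that of benign tissue, in which samples 4 and 6 were lowest. The coefficient of variation was 84.4% in benign tissue and 62.1% in tumors, and the log2 fold change was -0.54 with a 95% interval of -1.85 to 0.78 (edgeR's quasi-likelihood test, Benjamini-Hochberg adjusted p = 0.47). Igfbp2 and Igfbp5 are neighbors on chromosome 1, on opposite strands and 5457 bases apart with their 3′ ends facing each other. Igfbp5 rose in tumors and Igfbp2 did not pass the test, and the difference between the genes was not tested.

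To set genes beside each other, levels were scaled by transcript length to TPM units, which sum to the same total in each sample. In benign tissue the mean levels ran from Igfbp7 (679 ± 255 TPM, SD, n = 6) over Igfbp5 (549.5 ± 147), Igfbp4 (295 ± 85.2) and Igfbp6 (167 ± 60.5) to Igf1 (59.8 ± 10.6), Igfbp3 (57.7 ± 28.8), Igfbp2 (35.4 ± 31.2), Igf2r (25.0 ± 2.55), Igf1r (8.79 ± 2.27) and Igf2 (6.85 ± 1.04). The ranges of neighbors in this order overlapped, except that Igfbp5 lay above Igfbp4, Igfbp6 above Igf1 and Igf2r above Igf1r in all samples. In tumors Igfbp5 stood alone at 6842 ± 3068 TPM (SD, n = 6, lowest 1218), above Igfbp7 (160.2 ± 27.8), Igfbp3 (107 ± 34.4), Igf2r (101 ± 20.7), Igfbp4 (31.7 ± 19.5), Igfbp2 (26.3 ± 15.8), Igfbp6 (9.82 ± 2.78), Igf1r (9.78 ± 3.6), Igf1 (3.79 ± 1.1) and Igf2 (0.117 ± 0.0637). In tumors the ranges of neighbors overlapped from Igfbp7 to Igf2r and from Igfbp4 to Igf1r, and were apart at the other steps.

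**Figure D2:**
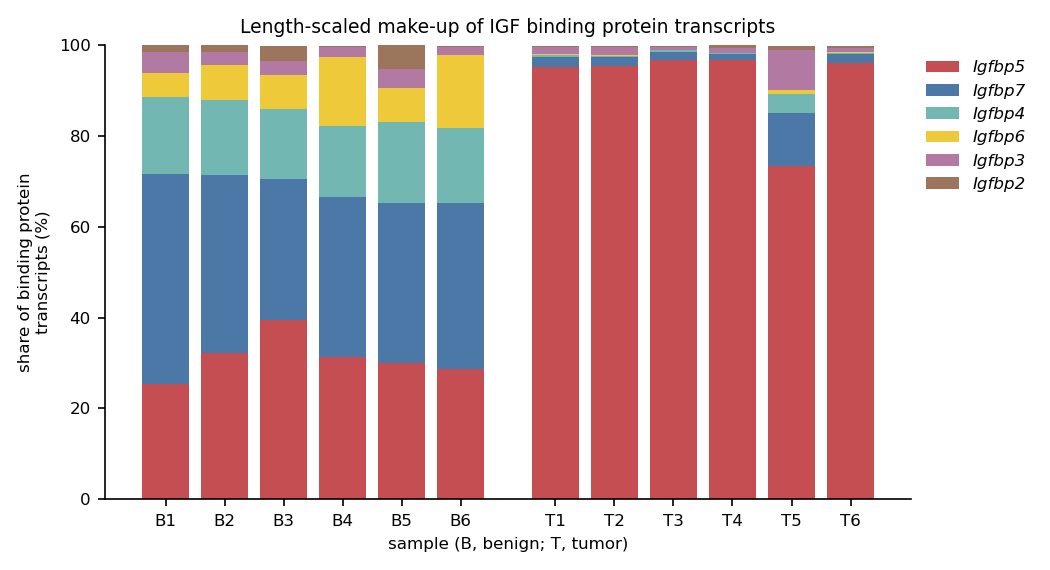
Share of each gene in the summed length-scaled level of the 6 binding protein genes, in percent, for benign samples (B1 to B6) and tumors (T1 to T6). Igfbp5 makes up 25.3% to 39.5% of the benign bars and 73.4% (tumor 5) to 96.8% of the tumor bars.

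The make-up of the binding protein transcripts moved from a mixture to mostly Igfbp5. Igfbp5 held 31.2% ± 4.75 of the length-scaled total in benign tissue (SD, n = 6) and 92.3% ± 9.29 in tumors (SD, n = 6), or 96.1% without tumor 5. The share of Igfbp7 went from 37.3% ± 5.13 to 3.53% ± 4.03, that of Igfbp4 from 16.5% ± 0.907 to 0.956% ± 1.62 and that of Igfbp6 from 9.92% ± 4.54 to 0.216% ± 0.254 (SD, n = 6 each). Tumor 5 decided much of these tumor means, which were 1.89% for Igfbp7, 0.294% for Igfbp4 and 0.113% for Igfbp6 without it. In tumor 5 the shares were 11.7% Igfbp7, 8.99% Igfbp3 and 4.26% Igfbp4, the highest of each among the tumors. These shares are of a total that holds Igfbp5, so they rise where Igfbp5 is low. As CPM, tumor 5 was highest for Igfbp4 (92.3), near tumor 2 for Igfbp3 (123 and 122) and below tumor 3 for Igfbp7 (79.5 and 83.2). Igfbp4 had a nearly constant share in benign tissue, from 15.4% to 17.9%.

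The total of binding protein transcripts relative to ligand transcripts was higher in every tumor than in any benign sample. Benign tissue held 26.7 ± 5.28 binding protein transcripts for each Igf1 or Igf2 transcript (SD, n = 6, range 21.0 to 33.3), and tumors held 1999.8 ± 1086 (SD, n = 6, range 424 to 3346), or 2315 without tumor 5. Without Igfbp5 the ratio was 18.4 ± 4.29 in benign tissue and 91.0 ± 27.2 in tumors (SD, n = 6 each), while the summed level of the other binding proteins was lower in tumors (1234 ± 364 TPM and 335 ± 57.9 TPM). The summed ligand level was 66.7 ± 10.3 TPM in benign tissue and 3.91 ± 1.07 TPM in tumors (SD, n = 6 each). These ratios compare RNA levels in bulk tissue and not protein.

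Of 30 other genes of the pathway, 27 were in the table and 25 passed the filter on low counts, of which 6 were higher, 9 lower and 10 neither (edgeR, adjusted p under 0.1). These counts are 24.0% and 36.0% of the genes tested, near the 28.2% and 34.8% of all genes. Their median log2 fold change was -0.19, beside -0.062 over all genes. Among carriers and proteases, 1 of 8 tested rose and 5 fell. The gene that rose was Igfals, whose product holds IGFs in a ternary complex with IGFBP3 or IGFBP5. Its level went from 40.1 ± 13.3 to 102 ± 54.1 CPM (SD, n = 6 each), with a log2 fold change of 1.35 (SE 0.39; edgeR, Benjamini-Hochberg adjusted p = 0.0096). Tumor 5, at 22.9 CPM, was below all benign samples, and the other 5 tumors, from 78.5 to 175 CPM, were above all of them. Without tumor 5 the log2 fold change was 1.62 (edgeR, adjusted p = 0.00034).

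Htra1, Htra3 and Pappa, which encode proteases that act on binding proteins, fell. Htra1, a secreted serine protease that cleaves IGFBPs, went from 221 ± 38.4 to 4.43 ± 1.91 CPM (SD, n = 6 each), 49.9-fold lower, and its relative Htra3 from 299.7 ± 67.9 to 21.6 ± 7.87 CPM, 13.8-fold lower (edgeR, Benjamini-Hochberg adjusted p = 7.1e-09 and 1e-07). Pappa, the protease for IGFBP4, was low in benign tissue at 4.05 ± 1.78 CPM and lower in tumors at 0.571 ± 0.502 CPM (log2 fold change -2.81, SE 0.51; edgeR, adjusted p = 0.00042). Stc2, an inhibitor of PAPP-A, fell from 160.1 ± 108 to 20.4 ± 13.8 CPM (log2 fold change -2.97, SE 0.51; edgeR, adjusted p = 0.0003), with its highest tumor value, 46.4 CPM, in tumor 5. Its log2 fold change was -2.34 without benign samples 3, 4 and 6 (edgeR, adjusted p = 0.0017). Stc1 fell as well (-1.08), and Adam12 and Ctsd passed the test in neither direction.

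Among 9 genes of IGF and insulin receptor signaling, 3 rose, 2 fell and 4 did neither. The shares were 33.3% and 22.2%, beside 28.2% higher and 34.8% lower over all genes tested. Irs1, an adaptor of both receptors, was 2.11-fold higher in tumors (93.2 ± 40.6 and 197 ± 58.8 CPM; edgeR, adjusted p = 0.0056), and Irs2 was 1.84-fold higher (88.6 ± 14 and 163 ± 41.1 CPM; edgeR, adjusted p = 0.0012). The groups overlapped for both adaptors. For Irs2 this was through tumor 5 alone, at 93.0 CPM against a highest benign value of 111 CPM. Without tumor 5 the log2 fold change of Irs2 was 1.06 (edgeR, adjusted p = 4.7e-05). For Irs1, benign samples 4 and 6, at 134 and 155 CPM, lay above the lowest tumor, tumor 5 at 117 CPM. The insulin receptor gene Insr lay at 69.1 ± 16.3 and 78.3 ± 17.7 CPM (edgeR, adjusted p = 0.42). Lrp1, which encodes a multiligand receptor that takes up IGFBP3, fell 6.67-fold, from 504 ± 89.6 to 75.5 ± 23.5 CPM (SD, n = 6 each; edgeR, adjusted p = 2.5e-07). Of the Igf2 mRNA-binding proteins, Igf2bp2 was tested and fell from 4.91 ± 1.1 to 0.259 ± 0.0852 CPM (log2 fold change -4.15, SE 0.29; edgeR, adjusted p = 9.8e-08), with 1 to 3 counts in each tumor.

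**Figure D3:**
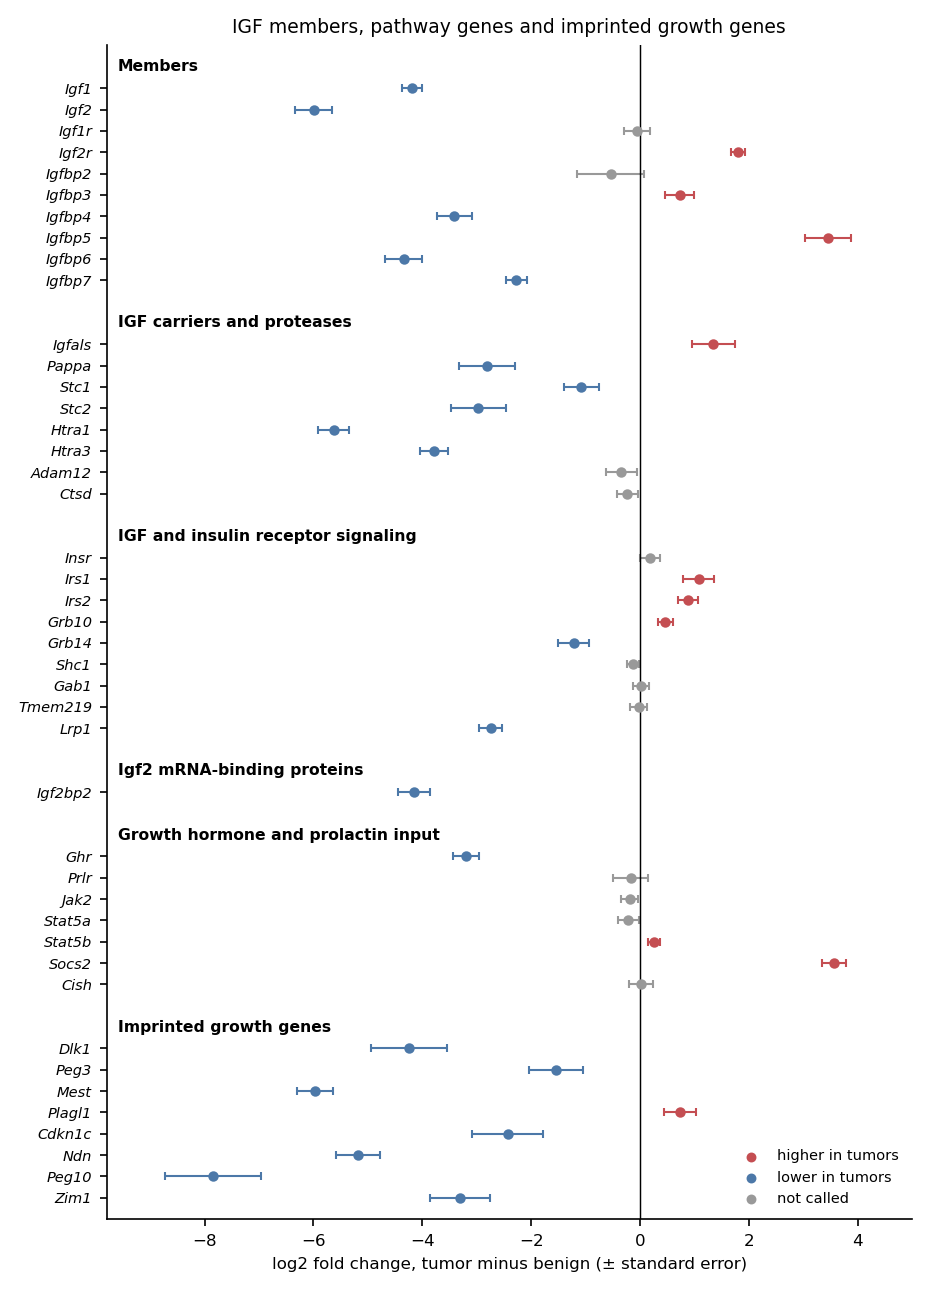
Log2 fold change of tumors against benign tissue (horizontal axis, points, with ± 1 standard error as bars) for the 10 IGF members, the 25 tested genes of the pathway and the 8 tested imprinted growth genes, grouped by role. Red marks genes higher in tumors, blue genes lower and grey genes that passed the test in neither direction. Igfbp5 (3.45) and Socs2 (3.57) lie farthest to the right, and Peg10 (-7.84) farthest to the left.

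Of the 7 genes of growth hormone and prolactin input, 2 were higher, 1 was lower and 4 were neither. These are 28.6% and 14.3% of the list, beside 28.2% higher and 34.8% lower over all genes tested. Ghr, the growth hormone receptor that stands upstream of Igf1, ranged from 397 to 696 CPM in benign tissue and from 44.5 to 95.9 CPM in tumors, 9.2-fold lower (log2 fold change -3.20, SE 0.24; edgeR's quasi-likelihood test, adjusted p = 2e-07). Socs2, an inhibitor of growth hormone receptor signaling that STAT5 induces, moved the other way. It ranged from 34.4 to 45.4 CPM in benign tissue and from 286 to 618 CPM in tumors, 11.9-fold higher (log2 fold change 3.57, SE 0.22; edgeR, adjusted p = 3.7e-08). Cish, a related inhibitor, lay at 44.6 ± 13.2 and 45.2 ± 12.9 CPM (edgeR, adjusted p = 0.95). The prolactin receptor gene Prlr, Jak2 and Stat5a passed the test in neither direction. The call of Stat5b (0.26; edgeR, adjusted p = 0.067) did not hold without benign sample 4 (edgeR, adjusted p = 0.12) or without benign sample 5 (0.14).

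Igf2 and Igf2r are imprinted, and so a list of other imprinted growth genes was counted beside them. Of its 10 genes, 8 were tested, 7 were lower in tumors and 1, Plagl1, was higher, with a median log2 fold change of -3.77. Over all genes tested, 34.8% were lower and 28.2% higher, with a median of -0.062. The list is not complete and was chosen with earlier results of these data known, so its counts do not describe imprinted genes as a class. Grb10, an imprinted gene counted above with receptor signaling and not in this list, was higher in tumors (log2 fold change 0.47; edgeR, adjusted p = 0.012). Mest fell 63.0-fold, from 164 ± 75.4 to 2.6 ± 0.369 CPM (SD, n = 6 each; edgeR, adjusted p = 1.6e-08), and Ndn fell 37.8-fold, from 35.1 ± 9.6 to 0.931 ± 0.659 CPM (edgeR, adjusted p = 2.8e-07). Peg10 ranged from 8.52 to 95.9 CPM in benign tissue and from 0.0 to 0.481 CPM in tumors, with 0 counts in 4 of them (log2 fold change -7.84, or -8.58 without tumor 3; edgeR, adjusted p = 7.8e-06). With so few counts in tumors, the size of its fold change depends on the fit. Cdkn1c, a cell cycle inhibitor, fell from 50.8 ± 8.75 to 9.32 ± 12.3 CPM (edgeR, adjusted p = 0.0062), and tumor 6 kept 33.4 CPM. Its log2 fold change was -2.43, or -3.42 without tumor 6. Plagl1, which encodes a zinc finger transcription factor, stood at 23.4 ± 7.03 and 39.0 ± 18.5 CPM (log2 fold change 0.74, SE 0.29; edgeR, adjusted p = 0.046), and its call was lost without benign samples 3, 4 and 6 (adjusted p = 0.23).

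**Figure D4:**
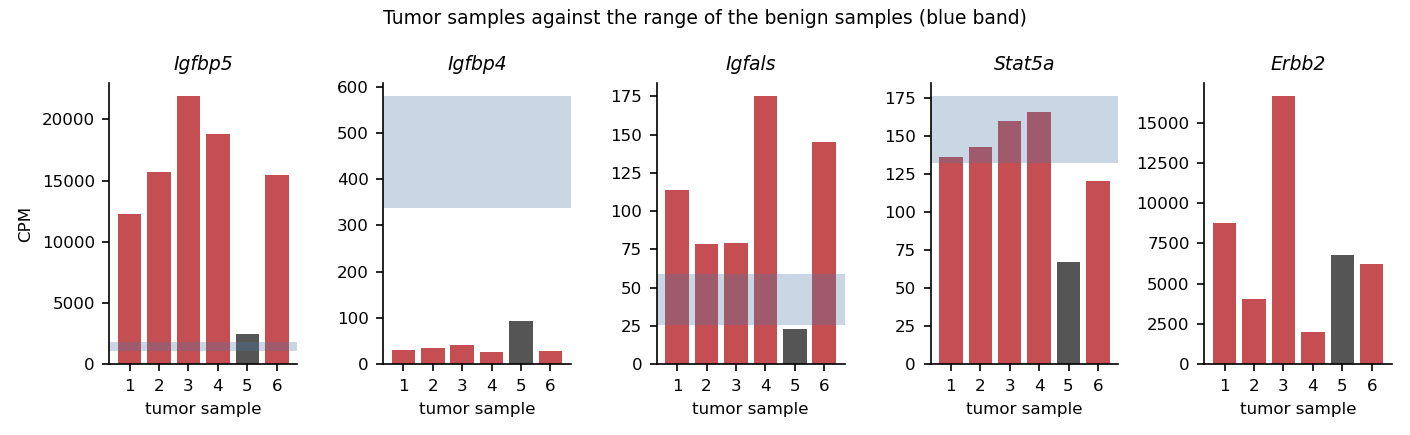
Level in CPM (vertical axes from 0) of Igfbp5, Igfbp4, Igfals, Stat5a and Erbb2 in tumors 1 to 6, with tumor 5 in dark grey and the range of the 6 benign samples as a blue band. Tumor 5 is lowest for Igfbp5, Igfals and Stat5a and highest for Igfbp4, and its Erbb2 level (6808 CPM) lies within that of the other tumors. The benign band for Erbb2, 44.8 to 73.7 CPM, is too thin to see at this scale.

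Tumor 5 differed from the other tumors in several of these genes at once. Besides the lowest Igfbp5 and Igfals and the highest Igfbp4 and Stc2, it held the least Stat5a, at 66.9 CPM against 120.4 to 166 CPM in the other tumors, and the most Prlr, at 230.2 CPM against 81.4 to 137 CPM. Elf5, a luminal transcription factor gene, was at 214 CPM in tumor 5 and between 320 and 439.8 CPM in the others. Its luminal marker sum (4496 CPM) was the highest of the tumors and its skeletal muscle marker sum was 148 CPM, against 0.843 to 8.64 CPM in the others. These values were looked up after tumor 5 had been seen to stand apart and are given without a test. Leaving out tumor 5 left 3 members higher and 5 lower.

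For each member, the genes with the most similar profile over the 12 samples were found as those with the smallest root mean square difference in standardized log2 CPM, among 11368 genes. A smaller difference is closer, and with samples in separate groups most of the likeness reflects the gap between the groups. The nearest to Igf1 were Orm1 (0.0953) and Lpl (0.0963), and the nearest to Igf2 were Lypd6 (0.0772) and Gys2 (0.0938). For Igf2r they were Raph1 (0.153) and Alkal2 (0.165), and for Igfbp5 they were Epha2 (0.164) and Anpep (0.168). Igfbp4 was nearest to Atp2b4 (0.12) and Tsc22d1 (0.143), Igfbp6 to Pfkfb1 (0.0993) and Prnp (0.103), and Igfbp7 to Mmrn2 (0.127) and Gdf10 (0.132). The 3 members whose groups overlapped had more distant nearest genes, namely Ace (0.387) and Dnase2a (0.423) for Igf1r, Rcc2 (0.459) and Cenpt (0.472) for Igfbp2, and Cep135 (0.355) and Fam76b (0.363) for Igfbp3.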

How the data were processed

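RNA of 6 mammary tumors and 6 benign mammary tissue samples was sequenced as paired reads after poly A enrichment, from libraries of a strand-directional kit. Reads were trimmed and transcripts quantified by the authors with Salmon. The estimated counts of each gene were deposited rounded to whole numbers, and their totals differ between samples. The submitters' processing notes name Trim Galore, Salmon, DESeq2 and the build mm10 without versions, and the annotation, the strand setting and how transcripts were summed to genes are not given in the sources used here. The table listed 16411 genes with row sums of 5 or more, and 0 columns were left unused.

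Samples were grouped by their labels. Each pair of samples within a group differed by more than sampling noise (lowest chi-square per degree of freedom 12.5 in benign tissue and 16.4 in tumors). Groups were compared in R 4.3.3 with edgeR 4.0.16, after filterByExpr (minimum count 10, minimum total 15) and TMM scaling, by a two-sided quasi-likelihood test without covariates, and p-values of the 13191 genes tested were adjusted by Benjamini-Hochberg, with a threshold of 0.1. The standard error of a log2 fold change was derived from the F statistic. The script was tested on simulated data. CPM used TMM-scaled totals, and log2 CPM had 2 added counts. Fold changes between group means are ratios of mean CPM. Length-scaled levels (TPM) used the longest GENCODE M21 transcript of each gene, which 16087 of the genes listed (98.0%) have. Gene coordinates are from GENCODE M21 (GRCm38), and promoter sequences from RefSeq (GRCm38.p6), where all 10 members matched by symbol. Proteins were not printed.

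The members and the gene lists were chosen with earlier results of these data known. The text names all members, the 4 largest rises and falls of each list among called genes with at least 10 CPM in the higher group, the nearest 2 profiles of each member, and other list genes where a member result turns on them, such as partners and proteases of the binding proteins. Grb10 is named as an imprinted gene outside the imprinted list. The pathway genes Igfbp1, Igfbpl1 and Igf2bp1 and the imprinted genes H19 and Meg3 were not analysed here. The other values of tumor 5 were chosen after its Igfbp5 level was seen. Alternatives were DESeq2 1.42.0, other scalings, filters and thresholds, a replicate block, leaving out each sample, leaving out the benign samples with skeletal muscle markers, and merged exon length in place of the longest transcript. Leaving out tumor 5 for shares and ratios was added after seeing the data. The study calls the samples of a group biological replicates, and whether each came from a mouse of its own and which were extracted or sequenced together is not given in the labels.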

Additional observations from a re-analysis of the deposited data

Results flagged for a closer look

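In 2 of 20 groups tested (10 genes in benign tissue and in tumors), 1 sample lay far from the rest by Dixon's criterion, and chance alone gives about 1 in 20 such groups. Both were tumor 5. Its Igfbp5 level, 11.28 log2 CPM, was the lowest of the tumors, and the next lowest was 13.58, a gap of 0.734 of the range of the group, beyond the critical value for 6 samples. Its Igfbp4 level, 6.53 log2 CPM, was the highest of the tumors, and the next was 5.38, a gap of 0.64 of the range. Tumor 5 was above all benign samples for Igfbp5 and below all of them for Igfbp4.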

How the results depend on the processing

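Of 199 recomputed fold changes of the members, 189 kept their direction and side of the threshold. The exceptions were 1 for Igfbp3, at 0.38 without benign samples 3, 4 and 6 (edgeR, adjusted p = 0.23), which left 2 members higher, and 9 for Igf1r, which never passed the threshold. Igf1r was 0.038 with scaling by total counts, 0.039 when every gene with 1 count was kept and 0.0058 when each sample had to reach 10 counts, and between -0.14 and 0.14 when 1 sample was left out. Asking for 10 counts in each sample removed Igf2, which left 4 of 9 members lower, and left 4 imprinted genes tested, of which 3 were lower. Without benign samples 3, 4 and 6, 0 imprinted genes were higher. With merged exon length, the benign share of Igfbp4 was 14.8%. The ratio of binding protein to ligand transcripts was then 35.5 in benign tissue and 2775 in tumors, against 26.7 and 1999.8 with the longest transcript.

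Samples with the same number did not deviate together (correlations of -0.124 to 0.103, above 0.1 for 1 of 6 pairs). Low correlations cannot show whether the numbers pair samples, since tissues of 1 mouse need not deviate together. By the study's methods, the sequenced benign samples and tumors came from different mice. With the replicate block, 3473 genes were higher and 4237 lower, 3 members were higher and 5 lower, and Igfbp5 was at 3.25. Tumor counts of Igf2 of 3 or fewer per library limit the size of its fall.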
